A study of Mus musculus with 16 samples.

Results

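The Gut tube cells were the cells whose nearest neighbours in an atlas of mouse gastrulation and early organogenesis carried the label Gut tube. They were taken from chimeric mouse embryos at all 3 stages of the series, as cells that passed RNA quality control and were not called doublets. Of 37841 analysed cells, 250 carried this label. Of these, 107 came from Stat3 null libraries and 143 from WT libraries.

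Each chimera was made by injecting tdTomato-expressing Stat3 null embryonic stem cells (ESCs) of the CD1 background into WT CD1 host blastocysts. The null allele lacks exons 20 to 22 of Stat3, which were replaced by a Neomycin resistance cassette. Whole embryos of the E7.5, E8.5 or E9.5 stage (E, days of embryonic development) were collected, dissociated, and sorted by tdTomato into null (positive) and WT (negative) cells, so that both genotypes of a pool had developed in the same embryos. Each sorted fraction gave 1 droplet library of 3′ RNA tags, and each genotype had 2 libraries for E7.5, 2 for E8.5 and 4 for E9.5. Embryos were pooled at E7.5 and E8.5, and the null cells descend from manually picked ESC colonies selected for uniform tdTomato. Library names did not show which null and WT library shared an embryo pool, so the letters A to D only tell the libraries of a group apart. A WT cell with a UMI (unique molecular identifier, 1 counted RNA molecule) of the tomato gene was left out, which removed 2 Gut tube cells. Cells are compared here through sums over the cells of a library, in the libraries with at least 4 Gut tube cells. The labels list more pools at the last stage than the methods list embryos, so it is not known that all libraries came from separate embryos, and p-values measure only the spread between libraries.

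The gut tube forms when definitive endoderm, which leaves the primitive streak during gastrulation, inserts into the overlying visceral endoderm and spreads into an epithelial sheet that folds into a tube. Cells of visceral endoderm descent persist within it, mostly toward the hindgut. Along the tube, anterior endoderm is marked by genes such as Otx2, Hhex and Cer1 and posterior endoderm by Cdx and Hox genes, and the tube is a source of hedgehog ligands for the surrounding mesenchyme. ESCs injected into a blastocyst contribute to epiblast derivatives and rarely to visceral endoderm.

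Sequence around the start sites of genes that the results below turn on is given here so that the identity of each is visible. The windows run from 250 bases upstream to 50 bases downstream of the RefSeq start of transcription (GRCm38.p6). Cer1, a secreted antagonist of Nodal, BMP and Wnt, had the largest fall between E7.5 and E8.5. Nepn, a secreted proteoglycan gene, had the largest rise. Hoxa7, a posterior homeobox gene, rose with it, and Igf2, which encodes an insulin-like growth factor, was the gene that differed between genotypes. Capitals mark exact matches on either strand to a FOXA motif (TGTTTAC), a CDX motif (TTTATNG) or a STAT motif (TTCNNNGAA). The Cer1 window is chr4:82885102-82885401 on the minus strand, that of Nepn chr10:52391358-52391657 on the plus strand, that of Hoxa7 chr6:52218524-52218823 on the minus strand, and that of Igf2, 1 of 4 windows of that gene, chr7:142661222-142661521 on the minus strand.
Cer1: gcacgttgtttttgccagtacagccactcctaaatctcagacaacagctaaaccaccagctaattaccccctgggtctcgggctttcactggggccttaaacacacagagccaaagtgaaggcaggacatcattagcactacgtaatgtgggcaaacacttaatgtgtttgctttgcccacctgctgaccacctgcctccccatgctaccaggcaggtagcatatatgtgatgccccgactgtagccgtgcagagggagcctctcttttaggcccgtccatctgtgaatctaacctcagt
Nepn: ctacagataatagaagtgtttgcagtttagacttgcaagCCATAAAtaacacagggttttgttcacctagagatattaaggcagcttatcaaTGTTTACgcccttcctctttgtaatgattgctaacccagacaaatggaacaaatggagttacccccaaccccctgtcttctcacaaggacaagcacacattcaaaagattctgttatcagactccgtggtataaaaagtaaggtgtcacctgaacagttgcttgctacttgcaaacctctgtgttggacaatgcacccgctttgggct
Hoxa7: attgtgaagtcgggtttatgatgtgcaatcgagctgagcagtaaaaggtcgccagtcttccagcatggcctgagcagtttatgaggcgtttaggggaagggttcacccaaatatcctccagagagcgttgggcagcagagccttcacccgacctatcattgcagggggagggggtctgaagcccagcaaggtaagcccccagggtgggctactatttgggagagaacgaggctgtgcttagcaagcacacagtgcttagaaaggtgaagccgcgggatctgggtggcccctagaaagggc
Igf2: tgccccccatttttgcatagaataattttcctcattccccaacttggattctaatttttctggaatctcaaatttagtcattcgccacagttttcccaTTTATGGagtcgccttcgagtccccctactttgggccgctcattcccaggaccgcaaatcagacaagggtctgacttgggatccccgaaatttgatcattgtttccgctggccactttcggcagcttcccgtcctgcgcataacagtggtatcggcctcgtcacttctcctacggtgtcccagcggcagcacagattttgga
Nepn held 1 FOXA match and 1 CDX match, and the windows of Cer1 and Hoxa7 held none of the 3 motifs. Igf2 held 1 CDX match in this window, which was the only 1 of its 4 windows with a match. Among all 32851 RefSeq windows of this length, 3.65% held the FOXA motif, 10.9% the CDX motif and 8.3% the STAT motif, and among the 5887 windows matched to the genes tested here the shares were 2.73%, 6.69% and 6.06%. Among the 187 windows matched to the genes that rose from E7.5 to E8.5, the shares were 3.74%, 10.7% and 5.88%, and among the 95 windows of genes that fell they were 4.21%, 9.47% and 7.37%. These shares were not tested against each other. A match is a run of letters and is not evidence of binding.

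The label was well supported at E7.5 and weakly supported afterwards. The median mapping score (the share of atlas neighbours that carried the assigned label) was 0.92 over 146 cells at E7.5, 0.56 over 52 cells at E8.5 and 0.52 over 52 cells at E9.5. A score of at least 0.5 was reached by 137, 35 and 27 of these cells. The mean atlas day of the cells was 7.66 at E7.5, 7.87 at E8.5 and 7.86 at E9.5, and 2 of the 52 E9.5 cells mapped to an atlas day of 9 or later. The label at the later stages is therefore named below with the day of collection.

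Of the defining markers, Epcam, an epithelial adhesion molecule, had a UMI in every Gut tube cell of every group, against 9.17% to 72.9% of mesoderm-labelled cells. Foxa2, a pioneer transcription factor of endoderm, had a UMI in 87.5% of WT and 87.8% of null cells at E7.5, in 54.3% and 70.6% at E8.5, and in 44.4% and 68.8% at E9.5. Sox17, the transcription factor that specifies definitive endoderm, behaved differently. It had a UMI in 84.7% of WT and 83.8% of null cells at E7.5, in 34.3% and 23.5% at E8.5, and in 3 of 36 WT and 0 of 16 null cells at E9.5, where a count of 0 among 16 allows a share of cells with a UMI of up to 18.8%. In mesoderm-labelled cells of the same groups, which should lack Sox17, the share was 0.238% to 3.52% at median depths of 21950 to 42300 UMIs, against 19800 to 41770 UMIs in the Gut tube cells. At E9.5 the WT share was 8.33% (95% exact binomial interval 1.75% to 22.5%) against 0.551% in mesoderm, so the cells under this label were Epcam positive and partly Foxa2 positive while most had no Sox17 UMI.

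Levels are given in CPM, the UMIs of a gene on the usual CPM scale relative to all UMIs of the Gut tube cells of that library. Sox17 was 222 and 210 in the WT and 181 and 378 in the null libraries at E7.5. It was 84.6 and 59.8 in WT and 27.6 and 64.9 in null at E8.5, and 0, 4.86 and 8.66 in WT and 0 in null at E9.5. The stages did not overlap, and within a stage the genotypes did. Markers of other cell types were mostly low. The 5 node and notochord markers, among them Shh, which gut endoderm also expresses, summed to 9.63 to 307 CPM, and the 3 neural ectoderm markers to 1.71 to 25.4 CPM. The 4 endothelial markers summed to at most 12.3 CPM in any library, the 7 mesoderm markers to at most 84.1, and the 3 surface ectoderm markers to at most 34.0. The 5 visceral endoderm markers summed to 15.4 to 34.2 CPM at E7.5, 13.8 to 351 at E8.5 and 17.3 to 277 at E9.5, and Amn and Cubn, which encode endocytic receptors of visceral endoderm, were at 0 at E8.5 and E9.5. The 5 epiblast markers summed to 226 to 473 CPM at E7.5, of which Pou5f1 gave 70.0 to 142 CPM.

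**Figure D1:**
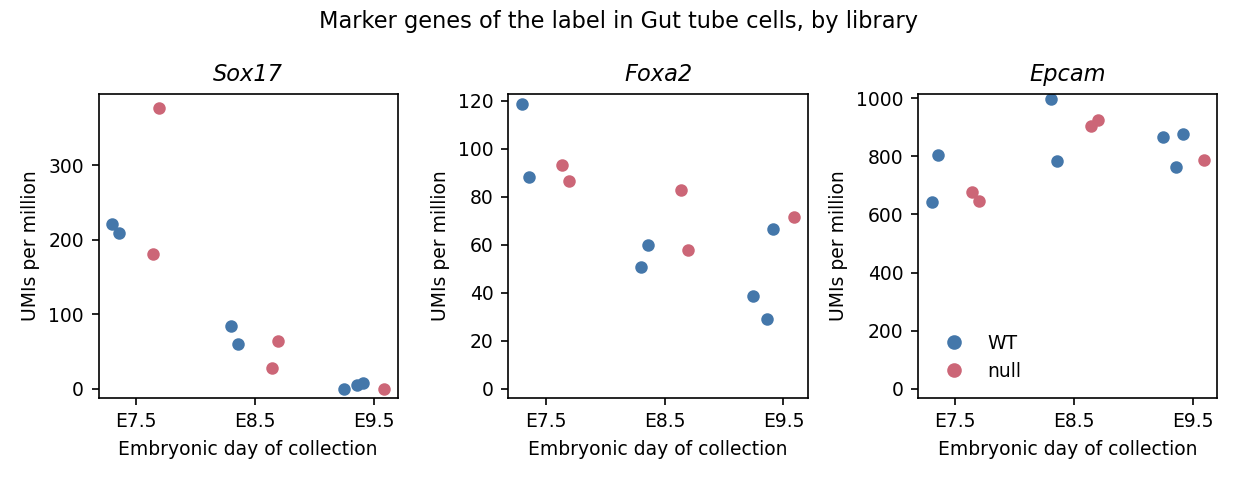
Levels of Sox17, Foxa2 and Epcam in Gut tube cells (CPM, linear axes) at each stage for the 12 libraries with at least 4 such cells. Each point is a library (WT blue, null red). Sox17 fell at each stage, while Epcam stayed between 643 and 998.

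Blood markers were higher in WT than in null libraries at the later stages. The summed level of the 5 markers was 719 to 1645 CPM in WT and 159 to 656 CPM in null libraries at E8.5, and 112 to 1588 CPM in WT and 31.1 CPM in null at E9.5, with Gata1 at 0 in all of them. Embryonic globin Hba-x had a UMI in all 35 WT and all 17 null Gut tube cells at E8.5, and in 99.9% and 99.6% of mesoderm-labelled cells of the same libraries. Globin RNA was found in nearly all cells of both types at E8.5, and haemoglobin genes were left out of the gene tests. Whether other genes of blood cells moved with it was not tested. The 250 cells held 7677922 UMIs, with a median of 35140 per cell at E7.5, 21200 at E8.5 and 25330 at E9.5, and 4 of their barcode sequences recurred in another library but none in another library's Gut tube cells.

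The share of cells that carried the label was lower at E8.5 and E9.5 than at E7.5 in both genotypes. At E7.5 it was 4.01% and 2.41% in the WT and 2.99% and 2.50% in the null libraries. At E8.5 it was 0.157% (95% exact binomial interval 0.0429% to 0.402%) and 0.811% (0.551% to 1.15%) in WT and 0.157% (0.0575% to 0.340%) and 0.960% (0.480% to 1.71%) in null, so libraries of the same genotype differed beyond counting error. At E9.5 it was 0.114% to 0.390% in the 4 WT and 0% to 0.300% in the 4 null libraries, with no Gut tube cell among 1593 in null library C, which allows a share of up to 0.188%. These intervals and limits cover counting error only.

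No difference in the abundance of the label was detected between genotypes. In edgeR's quasi-likelihood test on cells per type, the log2 ratio of null over WT was -0.57 (SE 0.82, adjusted p = 0.987) at E7.5, -0.01 (SE 0.85, adjusted p = 1) at E8.5 and -1.12 (SE 0.67, adjusted p = 0.976) at E9.5. Without E9.5 null library A the last was -2.41 (edgeR, adjusted p = 0.329). At E7.5, 11.1% of the 27 types tested passed an adjusted p of 0.05, at E8.5 0% of 68, and at E9.5 1.41% of 71, and 3 types had an unadjusted p under 0.05 at each stage. DESeq2 likewise passed 3, 0 and 1 types. One of the types that passed at E7.5 was Visceral endoderm, the neighbouring label, with 31 and 71 cells in the WT against 2 and 0 in the null libraries (log2 ratio -6.06, SE 1.17, adjusted p = 0.00622). Injected ESCs rarely contribute to visceral endoderm, so this test could not measure an effect of Stat3 on that label.

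At E7.5 almost all gut endoderm was labelled Gut tube, and later only a minority. Among cells labelled Gut tube, Foregut, Midgut, Hindgut, Pharyngeal endoderm or Thyroid primordium, Gut tube cells were 94.2% of 155 at E7.5, 6.81% of 764 at E8.5 and 6.38% of 815 at E9.5. At E9.5 the share was 3.70%, 8.82%, 11.1% and 14.3% in WT and 0%, 1.14%, 2.99% and 5.96% in null libraries, so the ranges overlapped only through the lowest WT library. The difference within E9.5 had p = 0.0571 (exact two-sided permutation test of 4 against 4 libraries, smallest possible p = 0.0286). Over the 3 stages the null minus WT difference was -4.72 percentage points, with p = 0.102 (exact two-sided permutation test within stages, 8 WT and 7 null libraries with at least 20 gut endoderm cells), or 0.171 after adjustment over the 5 permutation tests made.

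**Figure D2:**
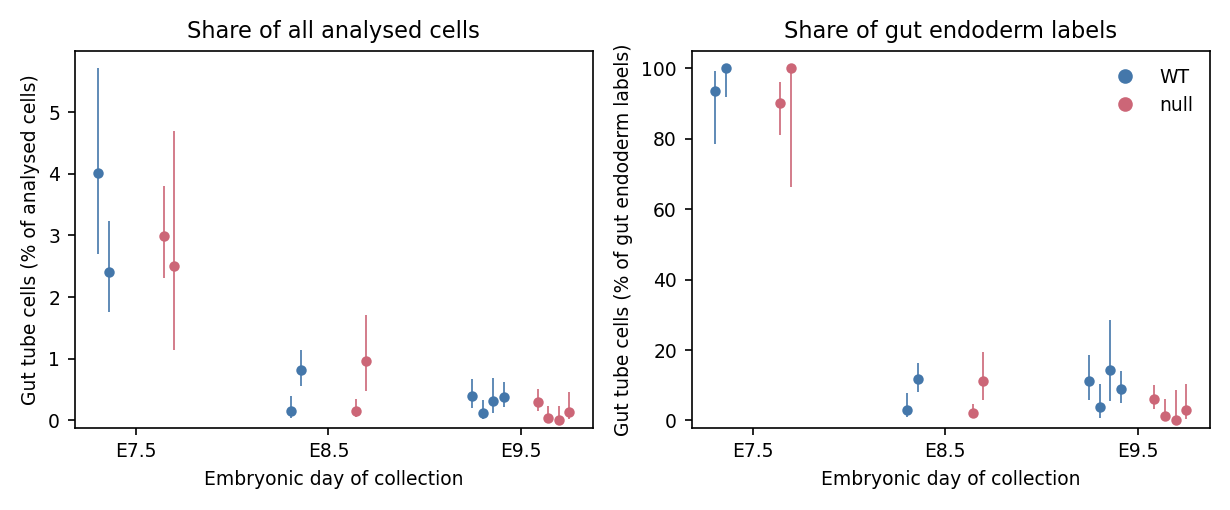
Gut tube cells as a percent of all analysed cells (left) and of cells with a gut endoderm label (right) at each stage. Each point is 1 of 16 libraries (WT blue, null red) and bars are 95% exact binomial intervals. The label took 90.3% to 100% of gut endoderm cells at E7.5 and at most 14.3% later.

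Pooled over libraries, Gut tube cells of E8.5 had levels of Sox17 and Cdx2 near those of the Midgut and Visceral endoderm labels, as description only, since these genes helped to place the labels. Sox17 was 59.5 CPM in Gut tube, 60.6 in Midgut, 59.9 in Hindgut and 58.6 in Visceral endoderm cells, against 10.5 in Foregut and 6.57 in Pharyngeal endoderm. Cdx2, the master regulator of posterior gut identity, was 104 CPM in Gut tube, 105 in Midgut, 97.7 in Visceral endoderm and 225 in Hindgut cells. Ttr, the transthyretin gene, was 255 CPM in Gut tube cells pooled over libraries, against 1648 in Midgut, 4112 in Visceral endoderm and 4.06 in Hindgut cells. By library, the 5 visceral endoderm markers, Ttr among them, summed to 25.4 and 351 CPM in WT and 13.8 and 332 in null Gut tube cells. Cdx2 was 178 and 89.7 CPM in WT and 173 and 68.5 in null. The pooled Ttr and Cdx2 levels therefore do not describe each library. The E8.5 cells were also mixed. Of the 52 cells, 28 had a UMI of Cdx2 without Sox2, 12 had Sox2 without Cdx2, 7 had both and 5 had neither. The cells with Cdx2 only had 74.1 CPM of Sox17 and 104 CPM of Hoxa7, and those with Sox2 only had 0 CPM of both.

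The E7.5 cells were not uniform along the body axis. Of the 146 cells, 58 had a UMI of Otx2, an anterior homeobox gene, without Cdx2, 31 had Cdx2 without Otx2, 12 had both and 45 had neither (Otx2 had a UMI in 31.8% of WT and 27.0% of null mesoderm-labelled cells of that stage), at median depths of 35300, 37820, 43310 and 29160 UMIs. The cells with Otx2 only had 405 CPM of Cer1 and 64.0 CPM of Lhx1, a homeobox gene of anterior mesendoderm. The cells with Cdx2 only had 33.9 CPM of Cer1 and 131.5 CPM of Cdx1, and their Sox17 level was 282 CPM against 204 CPM in the Otx2 cells. Cdx1 was at most 3.98 CPM in the other classes. The 12 cells with both genes had 219 CPM of the streak gene T and 63.6 CPM of Shh, which came from the 10 null cells (242 and 71.0 CPM), while the 2 WT cells had 19.2 and 0 CPM. Both genotypes held all 4 classes. The cells with both genes were 2 of 72 in WT and 10 of 74 in null, where the null cells were sequenced more deeply (median 41770 against 29020 UMIs).

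**Figure D3:**
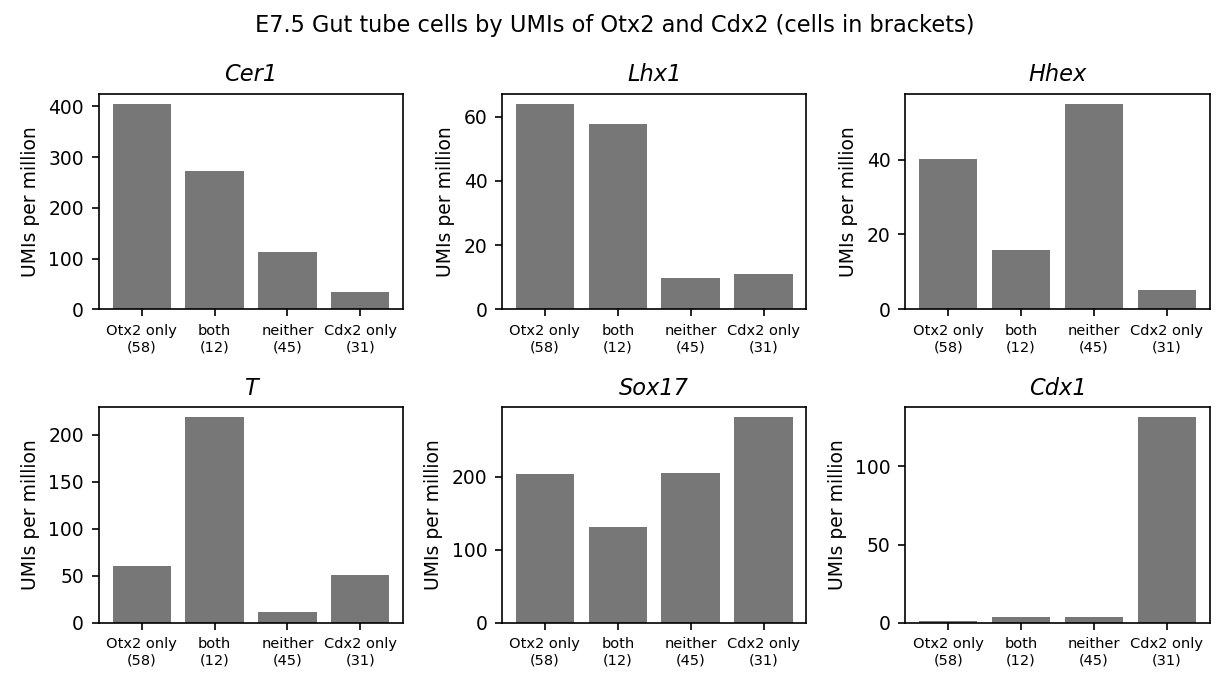
Pooled levels (CPM, linear axes from 0) of 6 genes in E7.5 Gut tube cells divided by whether the cell held a UMI of Otx2, Cdx2, both or neither, with the number of cells in brackets. With genotypes pooled, Cer1 and Lhx1 were highest with Otx2 only and Cdx1 with Cdx2 only, and in null cells Lhx1 was 64.3 with both genes and 47.9 with Otx2 only. Bars pool cells of 4 libraries and carry no error.

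Gut tube cells were compared between stages in 1 edgeR quasi-likelihood fit over the 12 libraries with at least 4 such cells (4 at E7.5, 4 at E8.5, and 3 WT and 1 null at E9.5). The level of a stage was the mean of its WT and null groups on the log2 scale, each genotype with equal weight. Calls required an absolute log2 fold change over 1 and an adjusted p under 0.05 (Benjamini-Hochberg over all 5826 genes tested). Between E7.5 and E8.5, 281 genes were called, 4.82% of those tested, with 185 higher (3.18%) and 96 lower (1.65%) at E8.5. DESeq2 called 176 higher and 48 lower, and limma-voom 224 and 59. Without E7.5 WT library B the count was 179. Since the label covered 94.2% of gut endoderm at E7.5 and 6.81% at E8.5, change within cells and change in which cells carried the label cannot be told apart.

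Cer1 and Sox17 fell and Foxa1 rose among regulators of early endoderm. Of 14 definitive endoderm regulators, 7 were tested, 2 fell and 1 rose, and the median log2 fold change was -1.55 against -0.02 over all genes. Cer1 was 277 and 214 CPM in WT and 211 and 254 in null libraries at E7.5, and no UMI was found in the 4 libraries of E8.5 or the 4 of E9.5 that entered the fit. Against the limit of 3 UMIs over the E8.5 libraries it was at least 86.9-fold lower (adjusted p = 4.08e-12). Sox17 fell by 2.01 on the log2 scale (SE 0.30, adjusted p = 0.000645), and Foxa1, a pioneer factor like Foxa2, rose by 1.09 (SE 0.22, adjusted p = 0.00156). Hesx1, an anterior homeobox repressor, was at least 14.7-fold lower, from 38.7 CPM to 0 (adjusted p = 5.18e-05). Trh, which encodes thyrotropin-releasing hormone, was 453 to 1212 CPM in the E7.5 libraries and 0 to 43.3 at E8.5 (log2 fold change -5.43, SE 0.73, adjusted p = 0.0207). Trh was called in 14 of 21 alternatives (largest adjusted p 0.155), and its log2 fold change lay between -9.06, without E8.5 null library B, and -5.11 when 1 library was left out. Pou5f1, the pluripotency factor OCT4, went from 91.2 CPM to 2.63 CPM on 3 UMIs, a ratio of 0.0288 with a counting interval of 0.00592 to 0.0847. Other genes with the largest falls were Ermn, Thsd7a, Oxct1, Stmn2 and Tcfl5, with pooled E7.5 levels of 24.3 to 113 CPM and at most 7.88 CPM at E8.5.

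Components of Wnt signalling moved both ways. Of 14 Wnt genes, 9 were tested, 2 rose and 3 fell, with a median of -0.96. Sfrp1, a secreted Wnt inhibitor, was 169 to 247 CPM at E7.5 and 0 to 34.9 at E8.5 (log2 fold change -3.25, SE 0.30, adjusted p = 3.61e-08), and the log2 fold change was -6.83 without E8.5 WT library B. Axin2 and Nkd1, feedback inhibitors and targets of the pathway, had log2 fold changes of -1.51 (SE 0.38, adjusted p = 0.0107) and -1.80 (SE 0.50, adjusted p = 0.0203). The ligand gene Wnt5a rose by 2.38 (SE 0.57, adjusted p = 0.0202), and Lef1, a transcription factor of the pathway, by 1.14 (SE 0.36, adjusted p = 0.0427). Lef1 was called in 8 of 20 alternatives (largest adjusted p 0.242), Nkd1 in 9 of 14 and Axin2 in 13 of 18. Of 12 retinoic acid genes, 8 were tested. Cyp26a1, which degrades retinoic acid, fell by 2.58 (SE 0.46, adjusted p = 0.000392), and Crabp2, which carries retinoic acid to its receptor, rose by 4.24 (SE 0.38, adjusted p = 4.95e-09). The log2 fold change of Cyp26a1 was -5.59 without E8.5 null library B and that of Crabp2 6.53 without E7.5 null library A. In each of these fits the remaining null library of that stage was at 0 CPM for the gene. Sfrp1 and Crabp2 were called in all 21 alternatives, and Cyp26a1 in all 18 in which it was tested.

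The hedgehog ligands Shh and Ihh, 5 posterior Hox genes and 3 epithelial genes rose. Shh was 0 to 31.2 CPM in the 4 E7.5 libraries and 84.7 to 281 in the 4 E8.5 libraries (log2 fold change 3.22, SE 0.55, adjusted p = 0.0115). It was 6.43 without E7.5 null library A, and Shh was called in 18 of 21 alternatives (largest adjusted p 0.117). Ihh, the other hedgehog ligand of gut endoderm, rose by 2.29 (SE 0.46, adjusted p = 0.00354), while the other 3 of the 5 hedgehog genes tested were not called. Of 12 posterior gut genes, 10 were tested and 5 rose, Hoxa7, Hoxa9, Hoxb9, Hoxc8 and Hoxc9, with a median of 4.38 over the 10. Hoxa7 was at most 3.07 CPM at E7.5 and 18.0 to 186 CPM at E8.5 (adjusted p = 0.00442). Hoxa9 was 102 and 28.2 CPM in the E8.5 WT libraries, 55.3 in null library A and 0 in null library B, and Hoxb9, Hoxc8 and Hoxc9 were also at 0 in null library B. In both E8.5 WT libraries, each of these 4 genes was above its level in every E7.5 library. The contrast weights the genotypes equally, so without E8.5 null library A its null part at E8.5 is the 0 of null library B. Without E8.5 null library A, Hoxa9, Hoxb9, Hoxc8 and Hoxc9 had log2 fold changes of 1.75, 1.39, 2.28 and 2.65, against 5.15, 5.04, 6.24 and 5.56 with it, and none of the 4 was called (edgeR, adjusted p = 0.986 to 1.0). Without E7.5 null library A, Hoxa9, Hoxc8 and Hoxc9 were not called either. Among 13 epithelial genes, all tested, Krt7, Krt19 and Cldn4 rose, while the more abundant Krt8 and Krt18 (1454 and 1596 CPM at the earlier stage, 1008 and 1193 at the later) were not called, and Krt19, a simple epithelial keratin, went from 23.1 to 46.0 CPM at E7.5 to 319 to 504 at E8.5 (log2 fold change 3.50, SE 0.22, adjusted p = 4.95e-09). The stages did not overlap for Krt19, Shh or Hoxa7.

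Nepn and Cxcl12, both genes of secreted proteins, were among the largest rises. Nepn was 0 to 2.37 CPM at E7.5 and 513 to 815 at E8.5 (log2 fold change 8.30, SE 0.88, adjusted p = 0.00228). Cxcl12, a chemokine, was 0 to 6.13 CPM at E7.5 and 191 to 330 at E8.5 (log2 fold change 7.22, SE 0.38, adjusted p = 7.13e-13). Ang and Rnase4, ribonuclease genes at chr14:51091150-51102009 and chr14:51091077-51106151, overlap on the genome, so their separate levels of 41.2 and 107 CPM at E8.5 are uncertain. Hoxb5os, a non-coding transcript antisense to Hox genes, had 24 UMIs at E8.5 and 0 at E7.5. Robo2, Arg1, Rgn and the immediate-early gene Egr1 were also among the largest rises, with ratios of 22.7 to 34.6. Of the other lists, 3 of 13 tested imprinted genes rose (Igf2, Igf2r and Peg10). Sox2, a transcription factor of the anterior gut, rose among the anterior gut genes. Tbx3 rose among 3 tested genes of the middle gut and its buds, and Id2, a BMP target, rose among 7 tested BMP and Nodal genes. Of 16 tested glycolysis and hypoxia genes, Bnip3 rose and the glucose transporter Slc2a1 fell. None of 24 cell cycle genes, 5 tested FGF genes or 5 tested visceral endoderm function genes was called. Several calls between these stages rested on 1 library. Without E8.5 WT library B, Foxa1, Axin2, Ihh, Krt7, Sox2 (log2 fold change 1.63, against 2.50 with it), Tbx3, Igf2, Peg10, Arg1, Egr1, Trh, Stmn2 and Socs2 were not called. Without E8.5 null library B, Axin2, Nkd1, Lef1, Wnt5a, Shh, Ihh, Tbx3, Trh, Stmn2 and Socs2 were not called. Without E8.5 null library A, besides the 4 Hox genes above, Foxa1, Nkd1, Lef1, Wnt5a, Krt7, Peg10, Slc2a1, Hoxb5os, Trh and Stmn2 were not called. Without E7.5 WT library B, Lef1, Wnt5a, Shh, Krt7, Peg10, Trh and Stmn2 were not called. Lef1 was also lost without each of the other 3 E7.5 libraries and E8.5 WT library A, Stmn2 without E7.5 WT library A, E7.5 null library B and E8.5 WT library A, Trh and Slc2a1 without E8.5 WT library A, and Peg10, Krt7 and Wnt5a without E7.5 null library A.

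Between E8.5 and E9.5, 103 genes were called (1.77%), with 38 higher (0.652%) and 65 lower (1.12%) at E9.5. Without TMM factors the split was 43 higher and 48 lower. The count rested on few cells, and was 24 without E8.5 WT library B, 31 without E8.5 null library B and 155 without E9.5 WT library D. At E9.5 the null genotype entered with 13 cells of 1 library, null library A. That library carried as much weight as the E9.5 WT libraries together, and it could not be left out of this contrast. Sox17 had 0 UMIs in that library and 4 UMIs over all E9.5 libraries in the fit. Its pooled ratio of E9.5 to E8.5 was 0.0568 (counting interval 0.015 to 0.152). Sox17 fell further, by 5.94 (SE 1.07, adjusted p = 0.01). The 3 glucose and lactate transporter genes Slc2a1, Slc2a3 and Slc16a3 fell among 16 tested glycolysis and hypoxia genes, where the list's median was -0.50. Slc2a3, a neuronal-type glucose transporter also abundant in early embryos, went from 801 to 1276 CPM at E8.5 to 126 to 323 at E9.5 (log2 fold change -2.36, SE 0.18, adjusted p = 5.37e-09). Slc2a1 fell by 2.23 (SE 0.26, adjusted p = 0.000254) and Slc16a3 by 1.61 (SE 0.22, adjusted p = 5.09e-05). Krt19 fell by 1.18 and Krt18 by 1.00 (the latter called in 6 of 20 alternatives, which ranged from -1.29 to -0.69), and Cdk1 was the only one of 24 cell cycle genes called (log2 fold change -1.24, SE 0.23, adjusted p = 0.00163).

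Other large falls at E9.5 were of Prtg, a cell surface receptor of early embryos (345.8 to 80.3 CPM), and Apela, the gene of a peptide hormone of the apelin receptor (432.5 to 79.5 CPM). The contractile protein genes Myl3 and Tnnc1, the podoplanin gene Pdpn, and Hist1h4a, Slc22a23 and Dgkk were the others. Hoxd11 and Hoxc10 rose, and they are not in the list of 12 posterior gut genes, of which 10 were tested and none was called (median -0.53). Among the other lists, Crabp2 rose by 1.12 and Peg10 fell by 1.38. Hoxd11 had no UMI at E8.5 and was 77.6, 102 and 75.1 CPM in WT and 18.7 in null at E9.5, at least 24.8-fold higher (adjusted p = 0.00412). Hoxc10 was 58.3 to 64.7 CPM in WT and 18.7 in null, on 1 UMI in all E8.5 libraries (ratio 57.0, counting interval 9.84 to 2288). The other 8 of the 10 largest rises without overlap were of Tfap2b, Gap43, Oxct1, Mecom, Tshz2, Prrx1, Ncam1 and Sema3c. Of these, Tfap2b was called in 7 of 20 alternatives, Gap43 in 4 of 10 and Tshz2 in 11 of 20, and among the falls Apela was called in 9 of 20. Without E8.5 WT library B, Sox17, Cdk1, Krt18, Crabp2, Peg10, Apela, Slc22a23, Dgkk, Hoxd11, Hoxc10, Tfap2b, Mecom, Tshz2, Prrx1 and Ncam1 were not called, and without E8.5 null library B the same held for these genes other than Cdk1, Peg10 and Hoxd11. Oxct1, an enzyme of ketone body use, was 31.1 to 61.5 CPM at E9.5 and 0 to 4.98 at E8.5 (log2 fold change 5.36, SE 0.89, adjusted p = 0.000636), having been 21.0 to 27.6 at E7.5. Mecom was 37.6 to 223 CPM in WT and 249 in null at E9.5 and at most 8.46 CPM at E8.5 (log2 fold change 4.86, SE 0.85, adjusted p = 0.029). The 7 mesoderm markers summed to 18.7 to 84.1 CPM at E9.5 and 0 to 28.3 at E8.5, and their part in these calls was not tested.

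**Figure D4:**
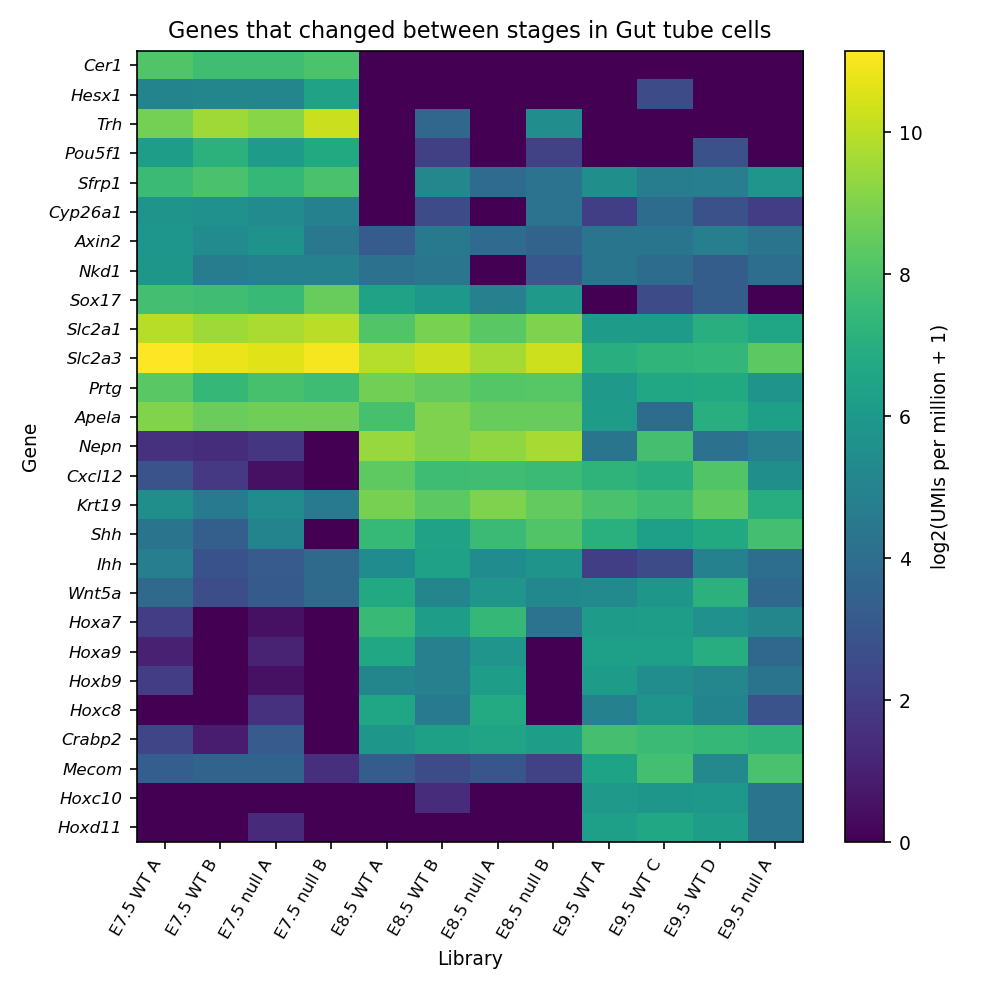
Levels of 27 genes in Gut tube cells, as log2(CPM + 1) by colour, with genes in rows and the 12 libraries with at least 4 cells in columns. Genes in the upper rows were high in all 4 E7.5 libraries, Nepn to Crabp2 rose at E8.5, and Hoxc10 and Hoxd11 were detected almost only at E9.5. Hoxa9, Hoxb9 and Hoxc8 were at 0 in E8.5 null library B.

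The genotype comparison set null cells, which descend from cultured ESCs, against WT host cells. Loss of Stat3 and descent from cultured ESCs cannot be told apart in this design. Stat3 itself was sparse. It was 1.02 and 4.28 CPM in WT and 1.19 and 0 in null libraries at E7.5, 8.46 and 6.65 in WT and 0 in both null libraries at E8.5, and 6.47, 9.72 and 5.78 in WT and 0 in null at E9.5. These values rest on 9, 5 and 6 UMIs at the 3 stages, and 3′ tags lie downstream of the replaced exons, so the level is no direct reading of the deletion. The mean over stages was 5.64 CPM lower in null, with p = 0.0139 (exact two-sided permutation test within stages, smallest possible p = 0.00694), or 0.0695 adjusted over 5 tests. In all other cells of these libraries Stat3 was 6.20 to 9.62 CPM in WT and 1.19 to 2.54 CPM in null.

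Igf2 was the only gene called between genotypes, 1 of 5826 (0.0172%) in the mean over E7.5 and E8.5. It was 47.0 and 24.8 CPM in WT and 98.5 and 86.7 in null libraries at E7.5, and 67.7 and 113 in WT and 152 and 285 in null at E8.5. The log2 fold change was 1.31 (SE 0.21, adjusted p = 0.00721, edgeR), and all 4 null libraries exceeded the WT libraries of their stage. At E9.5, which did not enter this contrast, it was 139, 126 and 121 CPM in WT and 382 in the null library. No gene was called without E7.5 WT library B or without E8.5 WT library A, DESeq2 called 2 genes and limma-voom 1, and Igf2 was called in 16 of 21 alternatives. Igf2 was also not called without E7.5 null library A, E8.5 WT library B or E8.5 null library B, and its log2 fold change lay between 0.99 and 1.59 when 1 library was left out. There were 211 genes with an unadjusted p under 0.05. H2afx, a histone variant of the DNA damage response, had an adjusted p of 0.0466 (edgeR) at a log2 fold change of 0.66 (SE 0.13), under the fold required. It was 485 and 486 CPM in WT and 657 and 674 in null at E7.5. At E8.5 it was 254 and 329 in WT and 498 and 601 in null. The genotypes did not overlap at either of these stages. At E9.5 it was 277, 269 and 352 in WT and 382 in null. How many of all genes tested showed no overlap was not counted, here or for other genes. In all other cells of these libraries H2afx was 437 and 499 CPM in WT and 657 and 665 in null at E7.5. There it was 330 and 347 CPM in WT and 397 and 424 in null at E8.5. In edgeR, no gene was called at E7.5 alone (0%, with 80 at unadjusted p under 0.05), at E8.5 alone (0%, with 266) or for a difference of the null effect between these stages (0%, with 174). DESeq2 called 0, 1 and 0 genes in these contrasts and limma-voom 2, 0 and 0.

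H19, the non-coding RNA gene that lies beside Igf2 on chromosome 7 and is expressed from the maternal allele, was lower in every null library but was not called. Its level was 204.5 and 221 CPM in WT and 27.3 and 98.2 in null at E7.5, 211 and 354 in WT and 27.6 and 0 in null at E8.5, and 343, 549 and 505 in WT and 3.11 in null at E9.5. The log2 fold change over E7.5 and E8.5 was -3.53 (SE 0.65, adjusted p = 0.635), and DESeq2 called it. It lay between -6.43, without E8.5 null library A, and -2.81 when 1 library was left out. Igf2 lies at chr7:142650766-142666816 and H19 at chr7:142575529-142578143 (GRCm38).

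Grb10, another imprinted gene that encodes an inhibitor of growth factor receptors, separated the null libraries from each other. It was 404 and 368 CPM in WT and 55.8 and 82.8 in null at E7.5, 372 and 306 in WT at E8.5, 333 to 404 in WT at E9.5, and 0 in E8.5 null library A and in the E9.5 null library. In E8.5 null library B it was 613 CPM, above every WT library. In that library it was 532 CPM in the 7 cells with a tomato UMI and 759 CPM in the 4 cells without, and H19 was at 0 in both. Across E7.5 and E8.5 its log2 fold change was -1.21 (SE 0.64, adjusted p = 1), and without E8.5 null library B it was -6.68 and Grb10 was called. Of the 15 imprinted genes, 13 were tested and Igf2 alone was called, with a median of 0.08 against 0.00 over all genes.

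Igf2 and H19 differed between genotypes in the same direction in the other cells of these libraries. In all other analysed cells, H19 was 431 to 733 CPM in the WT and 14.4 to 246 in the null libraries, and Igf2 was 91.3 to 246 CPM in WT and 195 to 368 in null. Grb10 was 190 to 373 CPM in WT, 259 in E8.5 null library B and 2.88 to 12.6 in the other 4 null libraries. In the E7.5 null libraries it was 55.8 and 82.8 CPM in Gut tube cells against 6.02 and 2.88 in the other cells. In the E7.5 WT libraries it was 404 and 368 CPM against 203 and 190. When the null effect in Gut tube cells was tested against that in the other cells with the library as a block, edgeR called no gene (0%, with 225 at unadjusted p under 0.05, with 1 called by DESeq2 and 1 by limma-voom). The difference was 0.41 (SE 0.19, adjusted p = 1) for Igf2 and -0.68 (SE 1.05, adjusted p = 1) for H19, with ranges of 0.20 to 0.86 and of -5.33 to -0.02 when 1 library was left out. For Grb10 it was 1.79 (SE 0.28, edgeR, adjusted p = 0.134), and it was called in 6 of 21 alternatives. It turned to -4.83 without E8.5 null library B, which left null library A, with 0 UMIs of Grb10, as the only E8.5 null library. The null effect on Igf2 and H19 was thus not shown to differ from that in the rest of the embryo.

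**Figure D5:**
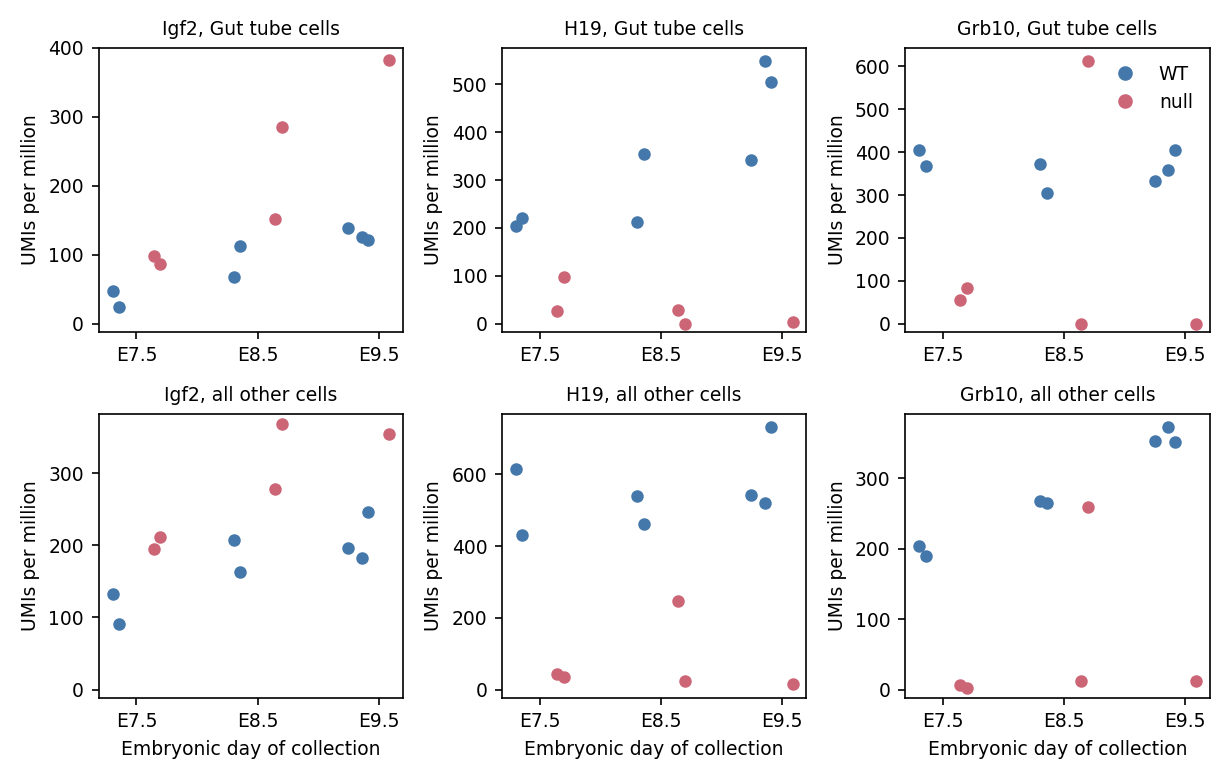
Levels of Igf2, H19 and Grb10 (CPM, linear axes) in Gut tube cells (upper row) and in all other analysed cells (lower row) of the same 12 libraries (WT blue, null red). H19 was lower in all 5 null libraries in both rows, and Grb10 was low in 4 of the 5.

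The STAT3 pathway was measured thinly. Of 23 pathway genes, 7 passed the filter on low counts and none was called between genotypes, with a median of 0.14 over both stages. Socs3, the feedback inhibitor that STAT3 induces, was 9.20 and 5.13 CPM in WT and 6.33 and 15.4 in null at E7.5, and 0 and 6.65 in WT and 20.7 and 18.0 in null at E8.5. At E9.5 it was 6.47, 4.86 and 2.89 CPM in WT and 0 in null library A, on 1 or 2 UMIs in each WT library. Il6st, the shared receptor subunit gp130, was 33.8 and 18.3 CPM in WT and 6.91 and 3.61 in null at E8.5, without overlap, where each null library had 1 UMI. The genotypes overlapped for Il6st at E7.5 (18.4 and 15.4 CPM in WT, 10.3 and 17.3 in null) and at E9.5 (19.4, 9.71 and 20.2 in WT, 15.6 in null). At E8.5, 4 of the 7 had an unadjusted p under 0.05 in edgeR, as did 266 of all 5826 genes tested. The 7 tested anterior gut genes also gave 4, and edgeR called no gene at that stage. Mcl1, a survival factor of the BCL2 family, was 131 to 156 CPM at E7.5 and 93.1 to 152 at E8.5. Socs2, a feedback inhibitor of cytokine signalling, was the one pathway gene called between stages. It was 70.5 and 53.0 CPM in WT and 56.1 and 55.9 in null at E7.5, and 8.46 and 16.6 in WT and 48.3 and 43.3 in null at E8.5, where the genotypes did not overlap (E8.5 against E7.5 over both genotypes, log2 fold change -1.13, SE 0.28, adjusted p = 0.00886). At E9.5 the order was the other way, with Socs2 at 35.6, 29.2 and 26.0 CPM in WT and 3.11 CPM, which is 1 UMI, in null library A. None of 24 cell cycle genes, 16 tested glycolysis and hypoxia genes, 13 epithelial genes, 10 posterior gut genes or 7 anterior gut genes was called between genotypes. The 7 anterior gut genes had a median of 1.49 over both stages, 0.27 at E7.5 and 1.37 at E8.5 (1.30 with genes at 0 in a group at their bound). Otx2 was 59.9 to 130.5 CPM in the 4 E7.5 libraries, and at E8.5 it was 108 CPM in null library B, 6.91 in null library A and 0 in both WT libraries.

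Rhox5 and Trap1a, X-linked genes that stay active in endoderm of visceral descent, marked a few WT cells at the later stages. At E7.5 Rhox5 had a UMI in 36.1% of WT and 12.2% of null Gut tube cells, and in 37.1% and 7.17% of mesoderm-labelled cells of the same groups, so the E7.5 share did not exceed that in mesoderm in WT. At E8.5 the 65 UMIs of both genes in WT cells fell almost entirely, 64 of them, in 5 of 35 cells, all of library B. At E9.5, 90 UMIs fell in 7 of 36 WT cells, 6 of library D and 1 of library C, with 10 to 19 UMIs each. In null cells, 0 of 17 at E8.5 and 0 of 16 at E9.5 held 3 or more UMIs, which allows shares of such cells of up to 17.6% and 18.8% (3 cells of the total). At E7.5 1 of 74 null cells held 20 UMIs of these genes and also had a tomato UMI.

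The difference did not pass the planned test. Each cell was thinned to 10000 UMIs. The share of cells with a UMI was averaged over the libraries of a stage and then over the stages. For Rhox5 this mean was 10.5% in WT and 2.02% in null, with p = 0.271 (exact two-sided permutation test within stages, adjusted p = 0.292 over 5 tests). For Trap1a it was 8.80% and 0.247%, with p = 0.292 (exact permutation test, adjusted p = 0.292). Unthinned, Rhox5 had a UMI in 17.1% of WT and 5.88% of null cells at E8.5 and in 13.9% and 0% at E9.5, against 2.77%, 4.05%, 5.92% and 3.89% of the mesoderm-labelled cells of these groups. Xist, which marks cells with an inactive X chromosome, was 0 to 447 CPM in the WT and 0 to 38.4 CPM in the null libraries with at least 4 Gut tube cells. It was 509.5 CPM in the single Gut tube cell of E9.5 null library B, which had no tomato UMI. The part of Xist in the levels of X-linked genes was not tested. Within E8.5 WT library B, the 5 cells had 10.1 CPM of Shh against 99.4 CPM in the other 26, and within E9.5 WT library D the 6 cells had 16.1 CPM against 158 CPM in the other 9. In the same cells Sox2 was 70.9 against 27.8 CPM and 266 against 63.0 CPM, as description over few cells. Cdx2 had UMIs in 3 of the 5 and 3 of the 6 cells, against 18 of the other 26 and 6 of the other 9. Its level was 60.8 against 95.4 CPM in E8.5 WT library B and 32.3 against 117 CPM in E9.5 WT library D.

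The mapped atlas stage of the cells did not pass the test between genotypes after adjustment. It came from the same atlas mapping that gave the label by which the cells were chosen. Cells that mapped to Foregut, Midgut or Hindgut are absent from this set, so the test cannot measure a delay of null cells. In libraries with at least 4 Gut tube cells, the mean atlas day was 7.71 and 7.61 in WT and 7.68 and 7.58 in null at E7.5, 7.94 and 7.89 in WT and 7.88 and 7.80 in null at E8.5, and 7.90, 7.83 and 7.83 in WT and 7.73 in null at E9.5. In these libraries the ranges overlapped at E7.5 and not at E8.5 or E9.5. Pooled over cells, E7.5 null was later than WT (7.67 against 7.65). The mean of the 2 cells of E9.5 null library D, 8.5, was later than the mean of every WT library. The 1 cell of E9.5 null library B, which had no tomato UMI, was at 7.5, earlier than the mean of every WT library. The mean difference was -0.08 days with p = 0.0417 (exact two-sided permutation test within stages, 7 WT and 5 null libraries), or 0.104 adjusted over 5 tests.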

How the data were processed

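Chimeric mouse embryos were measured by 3′ single-cell RNA-seq (10x v3). The authors deposited raw UMI counts per gene and cell, made with Cell Ranger on mm10 with a tomato gene added, and kept cells by UMIs, genes and RNA shares, leaving 41832 cells of 10003 to 99964 UMIs. Their deposited table of cells gives the percent of mitochondrial UMIs, a doublet score by scds (3395 doublet calls, left out here), and a label from an atlas with a mapping score, deposited as the fraction of nearest atlas cells that carry the label. Library names matched no label, so each library took its group from the stage and sort gate in the table of cells.

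UMIs of the Gut tube cells were summed per library, and CPM is relative to these sums. Mitochondrial, ribosomal protein, haemoglobin, Y-linked, tomato, Xist, Tsix and unnamed gene models were left out (8178 genes, 21275 kept), and 5826 genes passed edgeR's filter on low counts. The study also removed imprinted genes before its tests of differential expression. They were kept here, Igf2, H19 and Grb10 among them. Stages and genotypes were tested in 1 fit with edgeR 4.0.16 (TMM, robust quasi-likelihood, R 4.3.3) and checked on simulated data, with DESeq2 1.42.0 and limma-voom (limma 3.58.1) as alternatives. The minimum set first, more than 15 cells per library, left no stage with 2 libraries of each genotype, so at least 4 cells were used and at least 9 tried, both chosen after seeing the data. Permutation tests used scipy 1.17.1. Named genes were list members that were called and up to 10 called genes per direction with the largest change and no overlap between groups, plus abundant list members. H19, Grb10 and H2afx were chosen after their values were seen. The members and lists were chosen with earlier results of these data known. One of the called genes is not reported here.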

Additional observations from a re-analysis of the deposited data

How the results depend on the processing

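No paired analysis was possible because the library names carry no replicate number, so the null and WT library of an embryo pool could not be matched. The fit with a replicate block was not run, and the fits take no account of shared pools. Some values were alike in libraries of the same letter. The E8.5 Gut tube share was 0.157% in both A libraries and 0.811% and 0.960% in the B libraries. Whether these shared a pool was not tested. Minimums of more than 15 and more than 50 cells per library were not run, since too few libraries remained. At E8.5, the minimum of 9 cells left only WT library B and null library B. The spread between libraries in those fits therefore came from the other stages. Of 94 gene comparisons named, 34 gave the same call under all alternatives and 4 changed direction under at least 1. The number of genes called between genotypes over both stages, 1 in the values reported, was 3 with at least 9 cells per library, 2 with DESeq2, 9 with no filter on low counts, 2 with no fold threshold, 2 with no genes excluded, 2 without null-sorted cells lacking a tomato UMI, and 0 to 2 without 1 library. At E7.5, where 0 were called, it was 4 in a fit of the stage alone, 3 with at least 9 cells, 2 with limma-voom, 2 with no filter, 1 with no genes excluded and 0 to 2 without 1 library. At E8.5, also 0, it was 3 in a fit of the stage alone, 3 with at least 9 cells, 1 with DESeq2, 4 with no filter, 1 with no genes excluded and 0 to 2 without 1 library. The difference between stages gave 1 with at least 9 cells, 1 with no filter and 0 to 1 without 1 library. The null effect in Gut tube against other cells gave 8 with at least 9 cells, 1 with DESeq2, 1 with limma-voom, 15 with no filter, 1 without null-sorted cells lacking a tomato UMI, and 0 to 4 without 1 library. Between E7.5 and E8.5, 462 genes were called with no filter and 508 with no fold threshold, and 179 to 298 without 1 library. Between E8.5 and E9.5, 52 were called with DESeq2, 58 with limma-voom, 206 with no filter, 65 without null-sorted cells lacking a tomato UMI, and 24 to 155 without 1 library. The E8.5 abundance ratio turned to 0.16 with DESeq2 and lay between -1.62 and 1.58 without 1 library, against -2.41 to -0.81 at E9.5. Without E8.5 WT library B it was 1.58 and without null library A 0.94. The atlas stage difference was -0.0840 days with at least 9 cells (exact permutation p = 0.0833) and -0.0919 to -0.0519 without 1 library. The Stat3 difference was -4.94 CPM with at least 9 cells (exact permutation p = 0.0556) and -6.19 to -4.80 without 1 library. The share of gut endoderm differed by -6.24 to -3.19 percentage points without 1 library, with p = 0.0429 (exact permutation) without E8.5 null library B. Grb10, null against WT at E8.5, had a log2 fold change of -0.083 with DESeq2, -1.24 with limma-voom and -0.18 without null-sorted cells lacking a tomato UMI, and lay between -10.77 (without E8.5 null library B) and 0.95 (without E8.5 null library A) without 1 library. Its stage difference lay between -8.19 and 3.53, and its difference from other cells between -4.83 and 2.38, both lowest without E8.5 null library B. The stage difference of Igf2 lay between -0.84 and 0.36 without 1 library. The causes were not tested. Libraries in the fit held 4 to 31 Gut tube cells at E8.5 and 6 to 15 at E9.5, and 4 E9.5 libraries with 0 to 3 did not enter. E9.5 null library A was the only null library of its stage in the fit. The range given without 1 library between E8.5 and E9.5 therefore does not cover leaving it out.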
